A study of Caenorhabditis elegans with 4 samples.

Results

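NFYA-1 occupied chromosome IV of Caenorhabditis elegans at 789 of the 4256 peaks in the authors' combined list, and these 789 peaks are described here. They were chosen as every combined peak placed on chromosome IV, and the peaks of the 2 replicate lists that shared at least 1 bp with them were set beside them. The replicate 1 list held 574 peaks on the chromosome, out of 3037, and the replicate 2 list held 422, out of 2188. Binding was measured by ChIP-seq, in which chromatin is precipitated with an antibody and the recovered DNA is sequenced. The series holds 2 ChIP samples, numbered replicate 1 and replicate 2, and 2 input samples, and each input is total chromatin DNA kept aside before precipitation. All 4 samples came from L3 larval hermaphrodites of strain OP404 that were kept at 20 °C. Their genotype was unc-119(ed3) III with the transgene wgIs404, which encodes NFYA-1 joined to TY1, GFP and FLAG tags and carries unc-119(+) as rescue. The antibody was directed against the GFP tag. The transgene was introduced by bombardment, and binding is that of the tagged protein in whole worms, so the tissue in which a site was bound is not resolved. Neither an untagged strain nor a peak list of the inputs was analysed here. Whether the 2 replicates were separate cultures is not stated in the labels, so differences between them may be technical only.

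NF-Y is a transcription factor of 3 subunits that recognises the CCAAT box, a short element of many promoters. The A subunit, of which NFYA-1 is a worm form, makes the base-specific contact, and the B and C subunits pair through histone-like folds and hold the complex on DNA. Worm chromosomes are holocentric, without a single centromere, and autosomes have a gene-rich centre with little recombination between arms that recombine more and hold more repeats. Chromosome IV also carries most of the worm's piRNA (21U-RNA) loci, the sources of small RNAs that guard the germline.

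For each peak the lists give its borders on the WormBase WS180 build and the q value of the authors' peak caller, PeakSeq. Peak strength is given below as −log10 of that q value, so a larger number is a smaller q. Neither read counts nor enrichments are listed, so the depth behind a peak is unknown. No genome sequence or gene annotation of WS180 was used, so regions are named by position and no gene is assigned to them. The largest coordinate on chromosome IV in any list, 17461651, stood in for the chromosome's length. The centre runs from 4365413 to 13096238, the left arm lies before it and the right arm after it, so that each arm takes up 25% of that length. Intervals on densities are exact 95% Poisson intervals and those on shares are exact 95% Clopper-Pearson intervals. They cover counting error only and take peaks to be independent, so they are too narrow where peaks cluster.

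The centre was the most densely occupied part and the right arm the least densely occupied one in the combined list. The centre held 451 peaks, or 51.7 per Mb (47.0 to 56.7). The left arm held 185, or 42.4 per Mb (36.5 to 48.9), and the right arm held 153, or 35.05 per Mb (29.7 to 41.1). The centre thus had 1.33 times the density of the arms (1.16 to 1.54), with 57.2% of the peaks in 50% of the length. Of the replicate lists, replicate 1 gave a ratio of 1.25 (1.06 to 1.48) and replicate 2 a ratio of 1.14 (0.939 to 1.39), and the replicate 2 interval includes 1. So did the intervals for the stronger 50% of the combined list, by rank over all chromosomes (1.16, 0.954 to 1.42) and for combined peaks found in both replicates (1.17, 0.951 to 1.43). The order of the arms was not shared. Replicate 1 had 29.6 peaks per Mb on the left arm and 28.9 on the right, and replicate 2 had 21.8 on the left and 23.4 on the right.

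**Figure D1:**
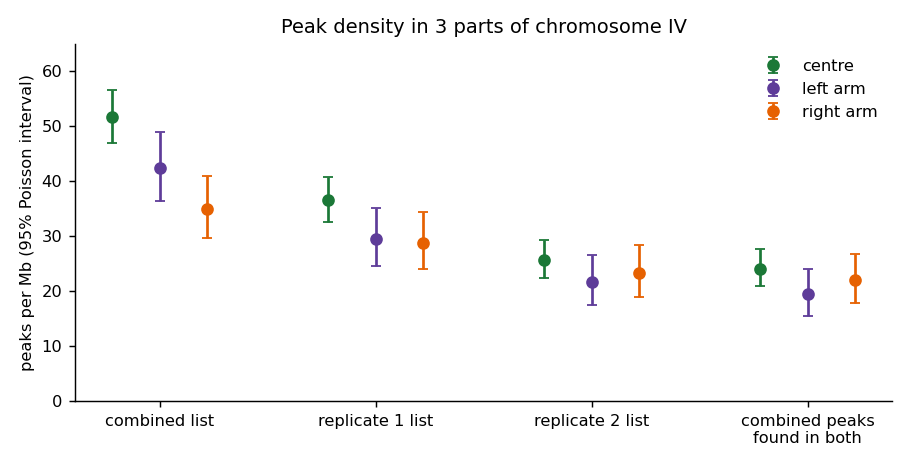
Peaks per Mb in the centre, left arm and right arm of chromosome IV (colours) for the combined list, the replicate 1 list, the replicate 2 list and the combined peaks found in both replicates. Points are densities and bars exact 95% Poisson intervals. In the combined list the intervals of the centre (47.0 to 56.7) and the right arm (29.7 to 41.1) do not overlap, and in the other 3 sets those of all parts overlap.

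Taken as a whole, the right arm was sparse in weak peaks and not in strong ones. Here the combined list of all chromosomes was divided at its median rank, and 411 peaks of chromosome IV fell in the stronger 50%. In the stronger 50%, the centre had 25.3 peaks per Mb (22.1 to 28.9), the left arm 21.1 (16.99 to 25.8) and the right arm 22.4 (18.2 to 27.4). In the weaker 50%, the centre had 26.3 per Mb (23.0 to 29.98), the left arm 21.3 (17.2 to 26.1) and the right arm 12.6 (9.49 to 16.4). The intervals of the 3 parts overlapped for the stronger peaks, whereas that of the right arm lay below both others for the weaker ones. The stronger 50% took in 221 of 451 peaks (49.0%) in the centre, 92 of 185 (49.7%) on the left arm and 98 of 153 (64.1%) on the right arm, where all chromosomes give 50% by construction. This share was uneven along the right arm. It was 15 of 19 in the 500 kb bin from 13500001 and again in that from 14000001. In the bin from 16000001 it was 6 of 12, and in the last bin, from 17000001, it was 9 of 18. The median strength was 9.36 in the centre, 9.41 on the left arm and 12.8 on the right arm in the combined list. Replicate 1 gave 8.07, 8.31 and 10.6 in that order, and replicate 2 gave 7.35, 7.39 and 8.10, so the right arm had the highest median in each list. The interquartile ranges overlapped widely, from 5.47 to 16.98 in the centre and from 6.13 to 25.4 on the right arm in the combined list.

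Within each part, occupancy varied strongly from bin to bin. Over the 34 complete 500 kb bins, the combined count had a median of 22 peaks (interquartile range 17.5 to 30.5) and ran from 10 to 36. The 17 bins whose middle lay in the centre held 25.4 ± 6.38 peaks (SD over bins), the 9 of the left arm 21.9 ± 7.03 and the 8 of the right arm 17.8 ± 6.16. The differences between these means, at most 7.66 peaks, were about the size of the spread of single bins within a part. That spread does not measure how uncertain the means are, and the means were not tested against each other. The replicates followed the same relief. Across the 34 bins, Spearman's rho between the replicate 1 and replicate 2 counts was 0.88, where all bins come from the same 2 libraries.

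**Figure D2:**
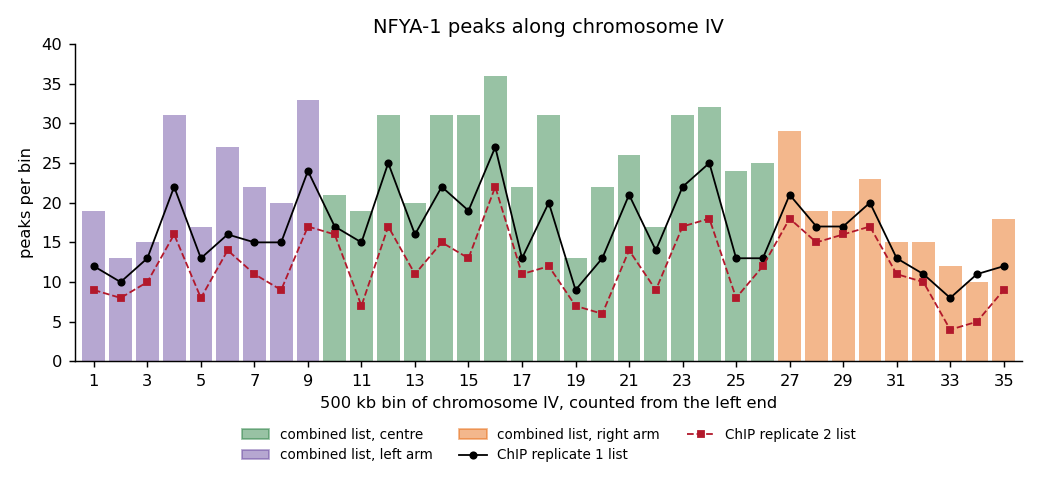
Peaks in each 500 kb bin of chromosome IV, counted from the left end, where bin 35 is shorter than the rest. Bars show the combined list, coloured by the part that holds the bin's middle, and lines show the 2 replicate lists. Bin 16 was the highest in all 3 lists, with 36, 27 and 22 peaks. Counts were low in bins 33 (12, 8 and 4 in the same order) and 34 (10, 11 and 5).

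The 3 fullest bins were spread over the centre and its left border. The bin from 7500001 to 8000000 came first in every list, with 36 combined, 27 replicate 1 and 22 replicate 2 peaks, and 21 of its combined peaks were found in both replicates. The bin from 4000001 to 4500000, which crosses the border of the left arm, held 33 combined, 24 replicate 1 and 17 replicate 2 peaks, and its peaks covered 5.59% of the DNA. The bin from 11500001 to 12000000 held 32 combined, 25 replicate 1 and 18 replicate 2 peaks, with 5.55% covered. Across the whole chromosome, combined peaks covered 508 kb, or 2.91%.

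In all, 9 bins reached 30 combined peaks, a limit set after the counts were seen. They formed 6 blocks. The longest block ran from 6500001 to 8000000 with 98 combined, 68 replicate 1 and 50 replicate 2 peaks, of which 47 combined peaks were found in both replicates. The next ran from 11000001 to 12000000 with 63 combined, 47 replicate 1 and 35 replicate 2 peaks. The other blocks were single bins, at 1500001 to 2000000, 4000001 to 4500000, 5500001 to 6000000 and 8500001 to 9000000. The longest block, for all its peaks, held 0 of the 20 strongest regions of the chromosome, whereas the block from 11000001 to 12000000 held 3 and the bin from 1500001 to 2000000 held 3. Bins with more peaks did not have clearly stronger ones. Over the 34 bins, Spearman's rho between the combined count and the median strength was -0.16.

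The emptiest bins lay near the right end, with an exception in the centre and another near the left end. The bin from 16500001 to 17000000 held 10 combined, 11 replicate 1 and 5 replicate 2 peaks. The bin from 16000001 to 16500000 held 12 combined, 8 replicate 1 and 4 replicate 2 peaks. A pair of bins held 13 combined peaks each, from 9000001 to 9500000 in the middle of the chromosome (9 in replicate 1 and 7 in replicate 2) and from 500001 to 1000000 (10 and 8). Sparse occupancy was thus not confined to the ends.

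Peaks of chromosome IV were separated by a median of 11.4 kb in the combined list (interquartile range 3.06 to 27.4 kb), 16.66 kb in replicate 1 and 23.6 kb in replicate 2. Of the 788 gaps between combined neighbours, 22 reached 100 kb. The longest stretch without a combined peak ran from 16181491 to 16382017 on the right arm (201 kb). The next longest lay in the centre, from 10513110 to 10697025 (184 kb) and from 4881072 to 5063244 (182 kb). A further pair on the right arm ran from 16664032 to 16845243 (181 kb) and from 16502254 to 16656167 (154 kb), on either side of 4 combined peaks. Of the 10 longest stretches, 5 lay on the right arm, 2 in the centre and 3 on the left arm. All 10 also held 0 replicate peaks, judged by where a peak is centred. This was largely set by the choice of stretches. On the chromosome, 568 of 574 replicate 1 peaks and all 422 replicate 2 peaks overlapped a combined peak.

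Other neighbours lay very close. Of the 788 gaps, 143 (18.1%, 15.5 to 21.02%) were 2000 bp or shorter, against 16.6% over all chromosomes. The share was 13.1% in replicate 1 and 9.98% in replicate 2, whose lists are shorter. When combined peaks up to 2000 bp apart were joined, the 789 peaks made 646 sites, of which 530 were single peaks, 97 were pairs and 19 were runs of 3 or more. The centre still had more sites per Mb (41.2) than the left arm (35.05) and the right arm (30.5). Of the 19 runs, 11 lay in the centre, 5 on the left arm and 3 on the right arm, and they spanned between 2825 and 12541 bp.

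The fullest runs differed in how well their peaks were found again. A run of 5 peaks from 8525827 to 8538367 (12541 bp, centre) had 4 peaks in both replicates, with strengths from 6.73 to 24.3. The other run of 5, from 4019726 to 4028631 (8906 bp, left arm), had 3 in both replicates. Runs of 4 lay at 10340559 to 10346442 and 6954644 to 6959859 in the centre and at 2769969 to 2776372 on the left arm, with 3, 2 and 1 peaks in both replicates. The run of 4 from 17328848 to 17335383, near the right end, had 0 in both replicates, and its strengths were between 3.73 and 5.75. The lists do not show whether a run is a set of separate sites or a broad region that the caller broke up.

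The strongest region of the chromosome lay near its middle, from 8430698 to 8433483 (2786 bp), with a strength of 277 in the combined list, 199 in replicate 1 and 171 in replicate 2. It ranked 2 among all peaks of each list. The second, on the right arm from 14032445 to 14034999 (2555 bp), had 230 in the combined list, 128 in replicate 1 and 134 in replicate 2. The third, from 15570554 to 15571305 on the right arm, was compact, with a combined width of 752 bp and replicate widths of 739 bp (replicate 1) and 727 bp (replicate 2). Its strengths were 185, 149 and 162 in the same order. The strongest 3 regions thus included broad and compact peaks, and replicate 2 was the stronger replicate at the second and the third but not at the first.

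The next regions were neighbours in the centre. The fourth, from 11118694 to 11119681 (988 bp), had strengths of 162 in the combined list, 146 in replicate 1 and 149 in replicate 2. The fifth, from 11125131 to 11125992 (862 bp), began 5449 bp after it and had 118, 98.5 and 64.1. The sixth, from 11592751 to 11594827 (2077 bp), with 111, 66.2 and 51.2, lay 467 kb further on. All 3 fell in the dense block from 11000001 to 12000000, so that 3 of the 6 strongest regions lay within 1 Mb.

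On the right arm, the seventh region, from 15027241 to 15029251, had strengths of 97.8 in the combined list, 55.4 in replicate 1 and 51.5 in replicate 2, where it was called as 2 peaks. The eighth, from 17276825 to 17281874 near the right end, was the widest peak of the chromosome (5050 bp). Its strength was 91.9 in the combined list, 55.8 in replicate 1 and 29.6 in replicate 2, so its replicates differed more than those of the region at 15570554. The strongest region of the left arm was the ninth, from 1860865 to 1861346, only 482 bp wide, with 88.3, 54.8 and 40.2. It was the narrowest of the 20 strongest.

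The 20 strongest regions lay 9 in the centre, 4 on the left arm and 7 on the right arm. These parts held 451, 185 and 153 of the 789 peaks. Every peak in the strongest 20% of the combined list, on any chromosome, was found in both replicates. All 20 regions thus were too, and 17 of them matched a single peak in each. Their median width was 943.5 bp, 6 of them reached 2000 bp and 13 were under 1000 bp. The left arm's 4 were the ninth, at 1860865, and those at 1649335 to 1650250, 1904013 to 1904683 and 2388838 to 2389410, so they lay close together, and 3 of them in the same dense bin. From the last of them no such region followed for 2.36 Mb, until 4749789 to 4750363. Longer intervals without a region of this class lay between 5716105 and 8430698 (2.71 Mb), a stretch that holds the longest dense block, and between 8433483 and 10933002 (2.50 Mb). The remaining ones were 10933002 to 10937541, 5715276 to 5716105, 5582167 to 5583137 and 12120477 to 12121460 in the centre, and 13877603 to 13879064, 13703808 to 13704467 and 17104112 to 17104830 on the right arm. Their combined strengths ran from 68.0 to 81.6, and their replicate strengths from 40.3 to 61.6 in replicate 1 and from 24.4 to 52.2 in replicate 2, with that at 4749789 included.

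**Figure D3:**
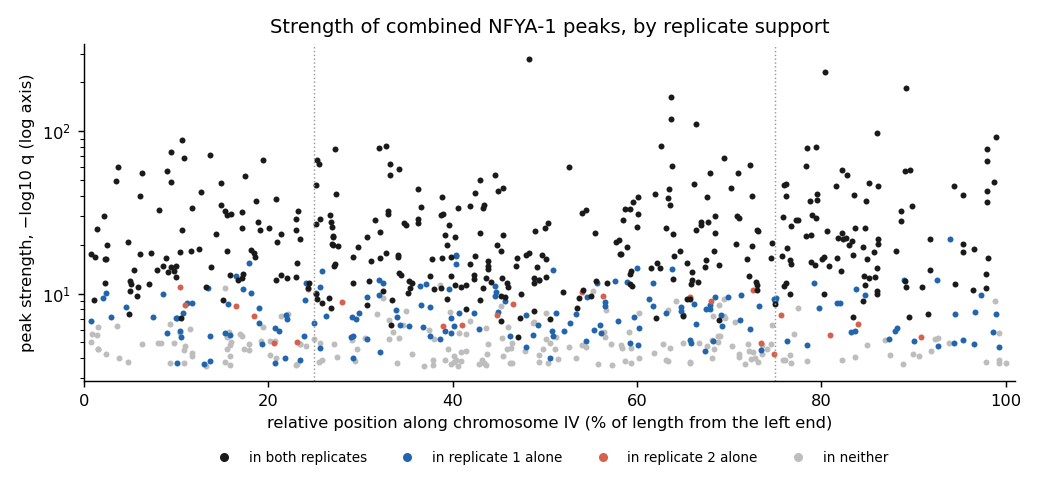
Strength (−log10 q, log axis) of the 789 combined peaks against their relative position along chromosome IV, coloured by the replicate lists that hold them; dotted lines mark the borders of the centre. Peaks in both replicates (black) reach 277, those in replicate 1 alone 21.7, those in replicate 2 alone 10.96 and those in neither 11.3.

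Median widths differed little along the chromosome. The median was 453 bp in the centre (interquartile range 360 to 774.5 bp), 456 bp on the left arm (363 to 625 bp) and 447 bp on the right arm (352 to 641 bp). In replicate 1 the medians were 439, 436 and 427.5 bp, and in replicate 2 they were 425, 446 and 389.5 bp. The right arm had the lowest median in each list, within interquartile ranges that overlapped. Peaks of 2000 bp or wider numbered 28 (3.55%), against 3.67% over all chromosomes, with 14 in the centre, 7 on the left arm and 7 on the right arm. These 28 had a median strength of 29.4, against 9.99 for all 789 peaks, and 22 of them were found in both replicates. Support rose with strength, as given below, so this count is not shown to be tied to width. The widest after the region near the right end were 10933002 to 10937541 (4540 bp), 3644793 to 3649235 (4443 bp) and 14610492 to 14614550 (4059 bp). The first 2 of these were each called as 2 peaks in both replicate lists. The last was 3279 bp wide with a strength of 16.74 in replicate 1, but 915 bp wide with a strength of 3.998 in replicate 2. The fifth widest, 12033341 to 12037272 (3932 bp, strength 8.47), overlapped 0 peaks of either replicate, so a wide peak was not always found again. Across the 789 peaks, Spearman's rho of strength with width was 0.40, and both come from the same reads.

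Replicate support differed between the arms. Both replicates had a peak at 392 of the 789 combined peaks (49.7%, 46.1 to 53.2%), against 48.2% over all chromosomes. A further 171 (21.7%) were found in replicate 1 alone, 23 (2.92%) in replicate 2 alone and 203 (25.7%) in neither, where all chromosomes gave 21.7%, 2.42% and 27.6%. The share in both replicates was 85 of 185 (45.9%, 38.6 to 53.4%) on the left arm and 96 of 153 (62.7%, 54.6 to 70.4%) on the right arm. The odds ratio of left to right was 0.505 (0.318 to 0.799; Fisher's exact test, two-sided, Benjamini-Hochberg adjusted over 3 comparisons, p = 0.00662). The centre, with 211 of 451 (46.8%, 42.1 to 51.5%), did not pass against both arms together, with 181 of 338 (53.6%, 48.1 to 59.0%). Its odds ratio was 0.763 (0.569 to 1.02; adjusted exact p = 0.0927). With a reciprocal overlap of 50% required, this comparison passed (39.9% against 50.3%, adjusted exact p = 0.00573). These tests treat peaks as independent and compare peaks of 2 ChIP samples.

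The arms also differed in strength, as given above. Among the stronger 50% of the combined list, 81 of 92 left-arm peaks (88.0%) and 91 of 98 right-arm peaks (92.9%) were found in both replicates, and the difference no longer passed (odds ratio 0.566, 0.178 to 1.69; adjusted exact p = 0.486). Fewer peaks were compared there. The whole combined list was also divided by strength into 5 classes of 20% each. All 157 peaks of chromosome IV in the strongest 20% were found in both replicates. In class 2, 147 of 159 were (92.5%), in class 3, 75 of 159 (47.2%) and in class 4, 13 of 148 (8.78%). In class 5, the weakest, 0 of 166 were, with a Clopper-Pearson upper limit of 2.20%. The rule of 3, which approximates that limit by dividing 3 by the number of peaks, gave 1.81%. On the other chromosomes the shares in classes 1 to 5 were 100%, 91.2%, 40.8%, 6.69% and 0.730%. The fall with strength was thus not particular to chromosome IV, and strength and support come from the same 2 ChIP samples. The parts could differ in classes 2 to 4 only, since class 1 was at 100% and class 5 at 0% in each part. In class 3, 48 of 103 centre peaks (46.6%), 12 of 30 left-arm peaks (40%) and 15 of 26 right-arm peaks (57.7%) were in both, with intervals too wide to show whether the parts differed at like strength.

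**Figure D4:**
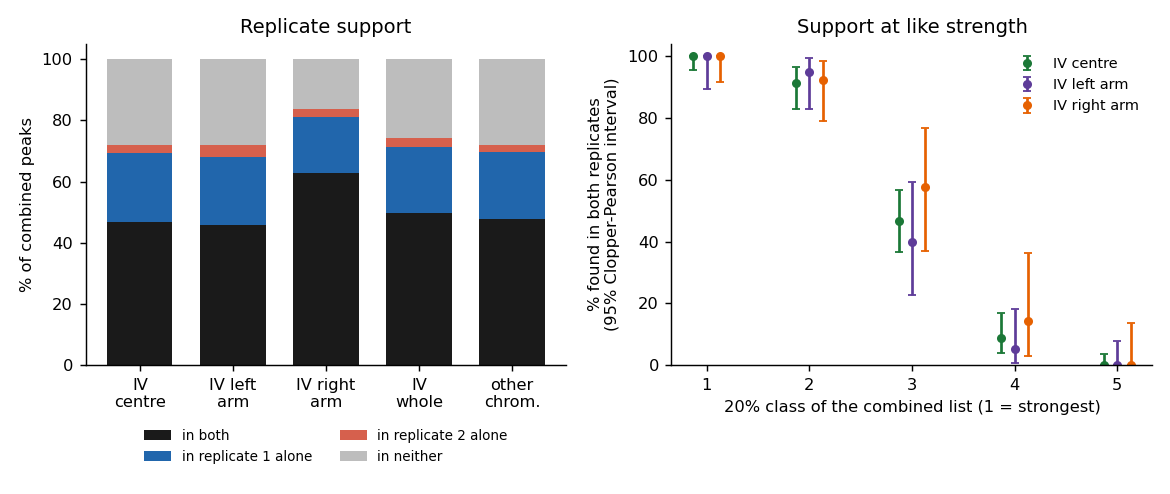
Left, the share of combined peaks found in both replicates, in replicate 1 alone, in replicate 2 alone or in neither, for the 3 parts, the whole of chromosome IV and the other chromosomes. Right, the share in both replicates by 20% class of the whole combined list (1 is the strongest; points are shares, bars 95% Clopper-Pearson intervals). Of the 3 parts, the right arm has the largest share in both (62.7%), and the share falls with strength in each part, with wide intervals in classes 3 and 4.

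Each replicate list was then set against the other. On the chromosome, 397 of 574 replicate 1 peaks (69.2%, 65.2 to 72.9%) were also in the replicate 2 list, against 68.2% over all chromosomes. Likewise, 397 of 422 replicate 2 peaks (94.1%, 91.4 to 96.1%) were also in the replicate 1 list, against 95%. By part, 214 of 319 replicate 1 peaks in the centre (67.1%), 87 of 129 on the left arm (67.4%) and 96 of 126 on the right arm (76.2%) were found in replicate 2. For replicate 2 the shares were 94.7%, 91.6% and 95.1%. Support was also uneven between bins. The bin from 14000001 to 14500000 on the right arm had 15 of its 19 combined peaks in both replicates and 1 in neither. The bin from 9500001 to 10000000 in the centre had 5 of 22 in both and 8 in neither.

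The 382 combined peaks with a single match in each replicate had a similar order of strength in both. Spearman's rho across these peaks was 0.84 and Pearson's r was 0.97, where the peaks come from 2 samples and are not independent replicates. The replicate 1 peak was the stronger in 315 of 382 (82.5%), with median strengths of 11.6 in replicate 1 and 8.10 in replicate 2. This held in each part, in 81.6% of matched peaks in the centre, 85.2% on the left arm and 81.9% on the right arm. The regions ranked 2, 3 and 4 on the chromosome, described above, went the other way. The share was not computed for the other chromosomes, so it is not shown to be particular to chromosome IV. There, peaks found in the other replicate had median strengths of 11.8 in replicate 1 and 8.62 in replicate 2. Since q values depend on depth, which is unknown, the higher strengths in replicate 1 say nothing of how much protein was bound in either sample.

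**Figure D5:**
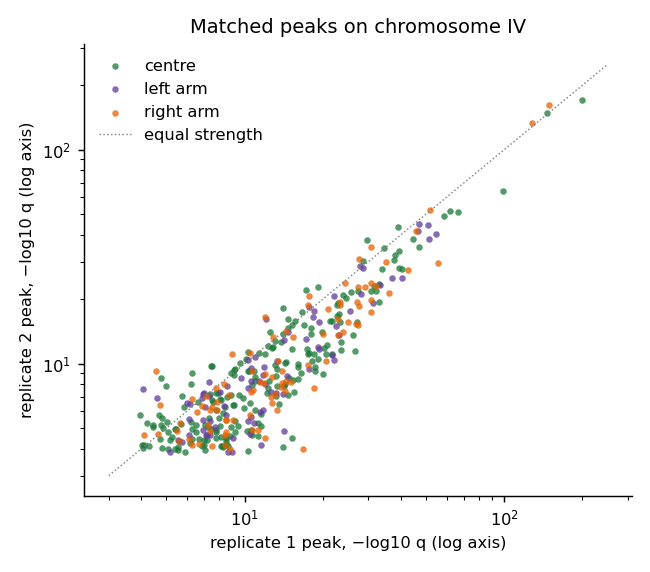
Strength in replicate 2 against strength in replicate 1 (−log10 q, log axes) for the 382 matched peaks, coloured by part; the dotted line marks equal strength. Most points, 315 of 382, lie below the line, and the 3 parts overlap throughout.

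Peaks found in a single replicate were mostly weak. Median combined strength was 18.7 for peaks in both replicates, 7.35 for replicate 1 alone, 7.38 for replicate 2 alone and 4.72 for neither. The combined and replicate lists come from the same 2 ChIP samples, so strength and support are not independent measures. The strongest combined peak with replicate 1 alone lay on the right arm from 16415092 to 16415918, with a strength of 21.7 in the combined list and 17.5 in replicate 1. It stands between the long empty stretches of the right arm. The strongest with replicate 2 alone lay from 1816198 to 1816792 on the left arm (10.96 in the combined list and 4.53 in replicate 2), and the strongest with neither from 6747645 to 6748838 in the centre (11.3). In the replicate 2 list, the strongest peak without a replicate 1 peak, from 15028776 to 15029155 (7.35), fell inside the seventh strongest combined region, which replicate 1 had as a shorter peak. Replicate 2 had that region as 2 peaks, of which this is the weaker.

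The piRNA loci of the worm lie mainly in 2 broad regions of chromosome IV, and occupancy was described there as well. Windows of whole 500 kb bins were set from general knowledge of those regions, from 4500001 to 7000000 and from 13500001 to 17000000. Their borders are approximate and were not taken from the files. The windows had 0.810 times the combined density of the rest of the chromosome (0.693 to 0.946), but 0.960 times (0.803 to 1.14) in replicate 1 and 0.989 times (0.803 to 1.21) in replicate 2. The second window was the sparser. It had 32.3 combined peaks per Mb (26.6 to 38.8), against 48.3 in the rest of the chromosome (44.4 to 52.5), while the first had 48.8 (40.5 to 58.3). The second window lies wholly on the right arm. The rest of that arm, examined after these densities were seen, is short (0.865 Mb). It held 40 combined peaks, or 46.2 per Mb (33.0 to 62.9). The replicate 1 list had 33.5 per Mb there and 27.7 in the second window, and the replicate 2 list had 27.7 and 22.3. The rest of the arm was thus the denser in each list, but the intervals overlapped and do not show whether the densities differ. The second window's 113 combined peaks had a median strength of 13.9, and 73 of them (64.6%, 55.0 to 73.4%) were found in both replicates. In the first window these values were 10.6 and 52.5%, and outside both windows 9.28 and 46.0%. The whole right arm had 12.8 and 62.7%, but it is made up of the window's 113 combined peaks and the 40 outside it. That comparison thus cannot show whether these values were particular to the window. The bin before the window, from 13000001, which begins in the centre, had 9.99 and 55.2%. The bin after it, from 17000001, had 9.87 and 50%. Bins inside the window had median strengths from 8.38 to 22.8, and the difference was not tested. Of the 20 strongest regions, 5 lay in the second window, 3 in the first and 12 outside both.

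Chromosome IV was then set beside the pooled peaks of the other chromosomes, which differ widely among themselves. It had 45.2 combined peaks per Mb (42.1 to 48.5), against 42.0 on the other chromosomes together (40.6 to 43.4), where single chromosomes ran from 30.3 on V to 66.8 on III. In replicate 1 the densities were 32.9 and 29.8 per Mb, and in replicate 2 they were 24.2 and 21.4. The median strength was 9.99 on chromosome IV and 9.45 on the others in the combined list, 8.47 and 8.13 in replicate 1, and 7.72 and 8.20 in replicate 2. The share in both replicates, 49.7% on chromosome IV and 47.9% on the others (40.7% on X to 53.7% on III), did not pass the test, with an odds ratio of 1.07 (0.918 to 1.26; adjusted exact p = 0.364). Median widths were 453 and 451 bp. Wide peaks made up 3.55% of combined peaks on chromosome IV and 3.69% on the others, but 2.44% and 3.41% in replicate 1 and 1.66% and 3.17% in replicate 2, where they rest on 14 and 7 peaks of chromosome IV. The differences in density, strength and wide peaks were not tested.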

How the data were processed

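The submitters deposited a peak list for each ChIP replicate and a combined list. Coordinates are 1-based on WormBase WS180 and PeakSeq is the caller, per the file headers; each peak's q-value, repeated in the attribute column, is the authors' own. For the aligner, PeakSeq's version, filters, the control library and how replicates were combined, nothing is given in the sources used here. Depth is unknown.

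Peaks were assigned to parts and 500 kb bins by their middle. Strength was −log10 q, ranked within a list. Peaks sharing at least 1 bp counted as overlapping, and the best-q partner gave the replicate value. Shares were compared by Fisher's exact test (two-sided), with Benjamini-Hochberg adjustment over 3 comparisons and a threshold of 0.05. Neighbouring peaks are not independent, so densities, strengths and widths got no test. Regions were named by rule: the 20 strongest, 5 widest, 10 longest gaps, 3 fullest and 3 emptiest bins (4 with a tie), 6 fullest runs, and the strongest peak of each class of replicate support. Members, lists and comparisons were chosen with earlier results of these data known. Alternatives were a reciprocal overlap of 50%, the stronger 50% of the combined list, either replicate alone and 3 parts of equal length. Overlap, density ratio and test were tested on simulated lists. Software was python 3.11.15, numpy 2.4.6, pandas 2.3.3, scipy 1.17.1 and matplotlib 3.10.9.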

Additional observations from a re-analysis of the deposited data

How the results depend on the processing

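Over 7 results, 29 alternatives were computed, of which 16 changed neither direction nor call, or stayed inside the main interval. Another 11 left the main interval, among them every alternative for the piRNA window ratio and for the share of short gaps. Of the rest, 1 comparison passed only in the alternative and 1 passed only in the main setting. The share of chromosome IV peaks found in both replicates (49.7%) was 44.4% with a reciprocal overlap of 50% and 87.8% among the stronger 50% of the combined list, where weak peaks are left out by construction. Counting support from a single replicate gave 52.6 to 71.4%. The left arm minus right arm difference in that share, -16.8 percentage points, was -12.9 to -15.6 with a replicate left out and passed in both cases. Among the stronger 50% it was -4.81 and did not pass, with fewer peaks compared. The centre minus arms difference, -6.77 points, was -4.56 to -7.36 with a replicate left out. It passed with a reciprocal overlap of 50% (-10.4), and the cause was not tested. Chromosome IV minus the others gave 1.73 to 2.41 points with a replicate left out. The density ratio of centre to arms, 1.33, was 1.14 in the replicate 2 list, 1.16 in the stronger 50% and 1.17 among peaks found in both replicates, each with an interval that includes 1. The ratio inside to outside the piRNA windows, 0.810, was 0.998 in the stronger 50%, 0.960 in replicate 1, 0.989 in replicate 2 and 1.03 among peaks found in both replicates. Gaps of 2000 bp or shorter, 18.1% of all, made up 10.2% in the stronger 50%, 13.1% in replicate 1 and 9.98% in replicate 2, all shorter lists. No paired analysis was possible because only the ChIP samples had peak lists to analyse. Without read counts, neither the weak peaks of the combined list nor the longer replicate 1 list can be set against depth.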

Other observations

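The combined list held a few very narrow calls on chromosome IV. Its narrowest peak was 1 bp wide, at 9741109 in the centre, with a strength of 3.70, and overlapped neither replicate. The next 4 in width, from 151 to 207 bp, also overlapped neither replicate and had strengths of 3.63 to 4.54. The narrowest replicate peak on the chromosome was 183 bp wide in replicate 1 and 217 bp in replicate 2. On the other chromosomes the narrowest combined peak was 30 bp wide.

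The combined list did not take in every replicate peak. All 422 replicate 2 peaks of the chromosome overlapped a combined peak, but 6 of the 574 replicate 1 peaks did not. On the other chromosomes, 28 of 2463 replicate 1 peaks and 4 of 1766 replicate 2 peaks did not, so this was not particular to chromosome IV. The strongest of the 6 lay from 13253843 to 13254273 on the right arm, with a strength of 5.40, and the weakest from 7612380 to 7612847 in the centre, with 3.72. The bin from 16500001 to 17000000 accordingly held 11 replicate 1 peaks and 10 combined peaks.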
